A study of Mus musculus with 6 samples.

Results

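The 10 genes described here handle ATP, NAD and adenosine in T cells: Entpd1, Nt5e, Cd38, Art2b, P2rx7, Adora2a, Adora3, Ada, Pnp and Xdh. They were listed by function out of the 57126 genes counted, with the TEff and TRM-like counts of these same samples already known, so the members were in part selected on this contrast. Their values are therefore given as a description, without p-values. All 10 were found among the counted genes, and all 10 passed the filter of at least 1 count in at least 3 samples, as did 26154 genes in all.

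RNA was sequenced from CD8 T cells of OT-I mice, whose transgenic T cell receptor recognizes an ovalbumin peptide presented by the class I molecule H-2Kb. The cells were isolated from lymph nodes and spleens and were stimulated with nano-aAPCs, magnetic nanoparticles that carry that peptide-MHC complex and an antibody to CD28. All cultures received nano-aAPCs and IL-2 and were harvested on day 6, and 3 samples (TEff) received IL-2 alone while 3 samples (TRM-like) also received IL-15 and TGF-β. The parts of IL-15 and TGF-β cannot be told apart, since the groups differ in both. TRM-like cells are an in vitro model of tissue-resident memory T cells made from lymph node and spleen cells in culture. The age and number of the mice, and whether the replicates came from separate cultures, were not given in the sources used here, so an error or p-value below measures only the spread between these samples. In bulk RNA, fewer cells of a type and less RNA per cell cannot be told apart.

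ATP released by stressed or dying cells is a danger signal, and a chain of surface enzymes turns it into adenosine, which restrains T cells. CD39, the product of Entpd1, removes phosphates from ATP and ADP to leave AMP, and CD73, the product of Nt5e, turns AMP into adenosine. Adenosine acts on receptors such as those encoded by Adora2a, which raises cyclic AMP, and Adora3, which couples to inhibitory G proteins. Inside and outside the cell, adenosine deaminase (Ada) makes inosine from adenosine, purine nucleoside phosphorylase (Pnp) splits inosine to hypoxanthine, and xanthine dehydrogenase (Xdh) oxidizes hypoxanthine to xanthine and uric acid. NAD feeds a parallel branch: CD38 breaks it down, and ART2.2, the product of Art2b, uses it to ADP-ribosylate and open the ATP-gated channel P2RX7.

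The 4 members that were higher in TRM-like cells past the threshold used here are shown with the 250 bases before their annotated starts, since they moved in one direction. The sequences were taken from RefSeq on the build GRCm38.p6 and are written 5′ to 3′. RefSeq windows matched 8 of the 10 members, in 10 windows, and no window was used for Adora2a and Xdh. Capitals mark CAGAC or its reverse complement GTCTG, the core sequence that SMAD proteins of the TGF-β pathway bind.
Nt5e, chr9:88327359-88327608, plus strand: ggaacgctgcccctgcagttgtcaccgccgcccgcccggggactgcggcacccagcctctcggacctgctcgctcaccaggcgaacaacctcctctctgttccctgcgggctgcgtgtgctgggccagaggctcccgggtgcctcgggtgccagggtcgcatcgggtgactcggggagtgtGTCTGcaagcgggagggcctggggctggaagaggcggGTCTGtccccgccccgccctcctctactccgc
Cd38, chr5:43868559-43868808, plus strand: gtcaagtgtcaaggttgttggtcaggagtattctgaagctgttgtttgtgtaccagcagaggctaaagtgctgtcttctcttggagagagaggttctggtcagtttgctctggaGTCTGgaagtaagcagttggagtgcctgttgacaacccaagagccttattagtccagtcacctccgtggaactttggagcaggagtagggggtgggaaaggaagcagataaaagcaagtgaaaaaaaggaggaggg
Adora3, chr3:105904171-105904420, plus strand: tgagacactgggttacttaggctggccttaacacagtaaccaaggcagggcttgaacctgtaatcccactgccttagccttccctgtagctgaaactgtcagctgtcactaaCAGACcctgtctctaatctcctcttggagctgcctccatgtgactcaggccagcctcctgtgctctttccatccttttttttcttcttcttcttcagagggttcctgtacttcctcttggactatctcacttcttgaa
Entpd1 first window, chr19:40612116-40612365, plus strand: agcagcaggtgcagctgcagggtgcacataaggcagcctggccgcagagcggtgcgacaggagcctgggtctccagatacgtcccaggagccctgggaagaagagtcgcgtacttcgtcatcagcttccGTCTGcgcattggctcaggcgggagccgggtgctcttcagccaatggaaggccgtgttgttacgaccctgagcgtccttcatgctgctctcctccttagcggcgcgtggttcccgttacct
Entpd1 second window, chr19:40659520-40659769, plus strand: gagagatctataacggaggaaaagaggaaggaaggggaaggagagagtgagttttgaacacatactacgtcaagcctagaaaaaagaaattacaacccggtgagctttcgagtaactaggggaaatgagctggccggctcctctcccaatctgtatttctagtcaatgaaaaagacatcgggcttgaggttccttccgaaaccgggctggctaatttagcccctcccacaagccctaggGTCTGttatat
Nt5e held this core at 2 places and the other 4 windows shown at 1 place each. Over all members the core was present in 9 of 10 windows, against 42.2% of 32851 windows of the same length, and the windows of Ada, Pnp and P2rx7, which did not pass the threshold, held it too. Searched in the same way on both strands, TGTGGT, the core of RUNX factors, was present in 1 of 10 windows (14% of all windows), and GCGTG, the core bound by the aryl hydrocarbon receptor, in 2 of 10 (28.2%). These matches describe letters in the windows and say nothing of binding in these cells.

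Between 18319013 and 21960760 reads were counted on genes in the TEff samples and between 21178756 and 23622621 in the TRM-like samples. TRM-like replicate 3 stood apart from the other samples of its group. A count was found on 35130 and 35559 genes in TRM-like replicates 1 and 2, whereas replicate 3 had 24229 such genes and the TEff samples had 24235 to 24908. Odorant and vomeronasal receptor genes, 1546 genes that T cells do not use, were read at 0.0284 and 0.0289 RPKM in TRM-like replicates 1 and 2 and at 0.00381 to 0.00571 RPKM in the other 4 samples. The label was checked with 9 CD8 T cell markers, whose summed level was 3294 to 3401 CPM in TEff and 3984 to 5073 CPM in TRM-like samples. Of 4 CD4 and regulatory T cell markers, Cd4 had 0 to 2 counts, Cd40lg 1 to 5 and Foxp3 6 to 29. The remaining marker, Zbtb7b, measured 35.0, 40.2 and 38.7 CPM in TEff replicates 1, 2 and 3 and 22.6, 25.1 and 16.9 CPM in the TRM-like replicates. Zbtb7b passed the threshold as lower (log2 fold change -0.82, adjusted p = 0.0335, edgeR). Results are given with all 6 samples, and those without TRM-like replicate 3 stand beside them where the call or a list's count changed. Fits without that sample keep only TRM-like replicates 1 and 2, the samples with the higher level of these unused receptor genes.

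Of the 10 members, 4 were higher in TRM-like cells past the threshold (Adora3, Nt5e, Cd38 and Entpd1), 1 was lower (Xdh) and 5 did not pass it (Ada, Pnp, Adora2a, Art2b and P2rx7). The threshold asked for a log2 fold change beyond 0.58 in either direction and a Benjamini-Hochberg adjusted p below 0.05 over all 26154 genes, from the quasi-likelihood test of edgeR. Of all genes tested, 3.01% passed it, 1.52% as higher and 1.48% as lower in TRM-like cells. The 3 TRM-like samples lay above the 3 TEff samples for 5 members and below them for 3, and the groups overlapped for 2, while the groups did not overlap for 20.3% of all genes tested. Because the members were chosen with this contrast known, these shares are background only. The median log2 fold change was 0.82 over the members and 0.02 over all genes tested. That median counts P2rx7, for which no fold change is given below because its counts were too low. Under edgeR's filterByExpr filter, which left out P2rx7, the median was 0.65 over 9 members and -0.01 over all genes tested. With TEff replicate 1 left out, 3 members passed (Nt5e, Adora3 and Xdh), and 1.04% of all genes did. With TRM-like replicate 3 left out, the same 5 members passed, and 14% of all genes did, 6.38% as higher and 7.67% as lower.

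**Figure D1:**
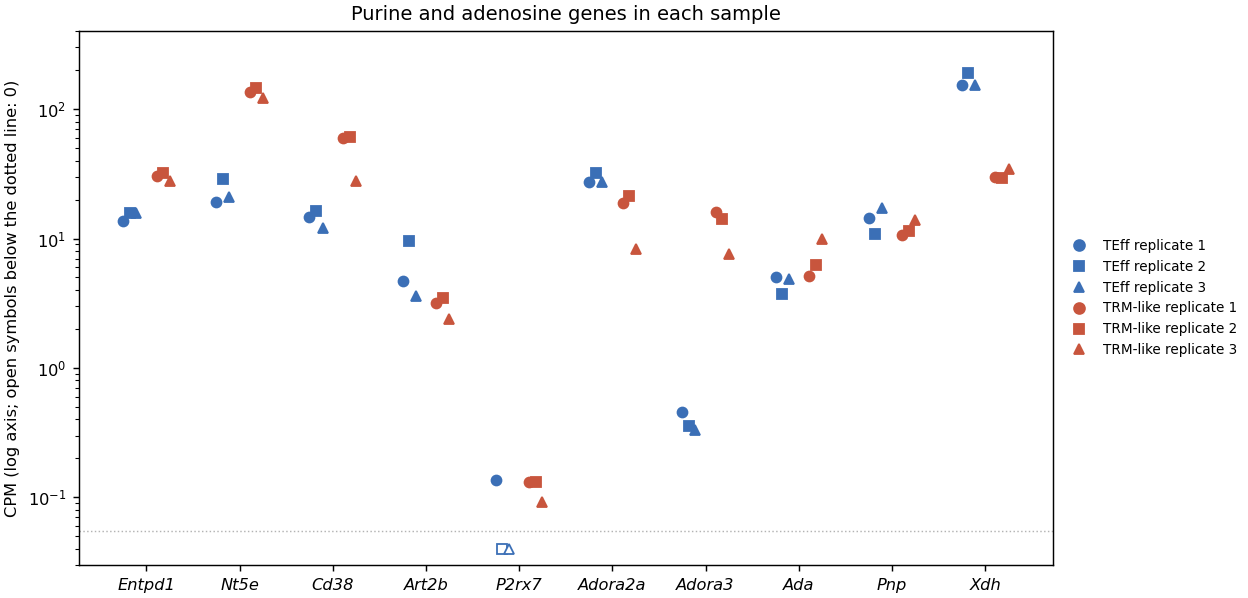
Level of each of the 10 genes in each sample, in CPM (counts scaled to the library size) on a log axis, with circles, squares and triangles for replicates 1, 2 and 3. Nt5e, Cd38, Entpd1 and Adora3 are higher and Xdh is lower in all 3 TRM-like samples, and the open symbols stand for the 2 TEff samples in which P2rx7 had 0 counts.

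Among the members, the RNA of both genes whose enzymes lead from extracellular ATP to adenosine rose, that of Nt5e more than that of Entpd1. Nt5e (ENSMUSG00000032420, GRCm39 chr9:88209089-88254146), which encodes CD73, measured 19.1, 28.7 and 20.8 CPM in TEff replicates 1, 2 and 3 and 135, 146 and 121 CPM in TRM-like replicates 1, 2 and 3. All 3 TRM-like samples were thus several times above the highest TEff sample, and replicate 3 lay close to the others. The mean went from 22.8 ± 5.11 to 134 ± 12.6 CPM (SD, n = 3 per group), a log2 fold change of 2.55 ± 0.18 (SE) or 5.87-fold. Leaving out any 1 sample gave 2.45 to 2.75, past the threshold each time. Among 14822 genes that reached 10 counts in each of the 6 samples, Nt5e had the 43rd highest log2 fold change.

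Entpd1 (ENSMUSG00000048120, GRCm39 chr19:40600810-40731585), which encodes CD39, measured 13.7, 15.8 and 15.7 CPM in TEff replicates 1, 2 and 3 and 30.4, 32.1 and 28.0 CPM in the TRM-like replicates. The groups were narrow and well apart, with means of 15.1 ± 1.19 and 30.2 ± 2.03 CPM (SD, n = 3 per group). The log2 fold change was 1.00 ± 0.13 (SE), or 2.00-fold. It stayed between 0.94 and 1.04 with any 1 sample left out, but the call was lost without TEff replicate 1. On the log2 scale, the difference of Nt5e was larger than that of Entpd1 by more than the sum of their standard errors.

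Of the members that consume NAD, Cd38 rose and Art2b did not pass the threshold. Cd38 (ENSMUSG00000029084, GRCm39 chr5:44025875-44069717), the NAD glycohydrolase, measured 14.7, 16.4 and 12.2 CPM in TEff replicates 1, 2 and 3. In TRM-like replicates 1, 2 and 3 it measured 59.4, 61.2 and 27.8 CPM. Replicates 1 and 2 were almost equal, and replicate 3 was below them but still above every TEff sample. The log2 fold change was 1.78 ± 0.29 (SE, n = 3 per group), or 3.43-fold, and 2.05 ± 0.13 without TRM-like replicate 3. The call was lost when any 1 of the 3 TEff samples was left out, with log2 fold changes of 1.69 to 1.88 in those fits. B cells carry CD38 as well. Of 5 B cell markers, the 3 that were tested had adjusted p-values of 0.226 to 0.922 (edgeR), and Ms4a1 had 0 to 2 counts. Pax5 had 0 counts in each TEff sample and 14, 10 and 0 in TRM-like replicates 1, 2 and 3, and Cd79b was above TEff in all 3 TRM-like samples without passing. The summed level of the 5 markers was 5.94 to 6.78 CPM in TEff and 7.29 to 10.9 CPM in TRM-like samples, and the part of B cells in the Cd38 result was not tested.

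Art2b (ENSMUSG00000030651, GRCm39 chr7:101226177-101234809) measured 4.71, 9.62 and 3.59 CPM in TEff replicates 1, 2 and 3 and 3.18, 3.45 and 2.40 CPM in the TRM-like replicates. Every TRM-like sample was below every TEff sample, by a small margin against TEff replicate 3, and TEff replicate 2 stood well above the rest. The log2 fold change was -0.99 ± 0.36 (SE, n = 3 per group) and did not pass the threshold. It ranged from -1.23 to -0.46 with 1 sample left out. The close relative Art2a shares 4.94% of the 50-base stretches of Art2b transcripts, so that some reads could belong to either. Art2a was read at 0.320 to 0.658 CPM in TEff and at 0.0922 to 0.174 CPM in TRM-like samples, also without overlap and without passing the threshold (adjusted p = 0.115, edgeR).

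P2rx7 (ENSMUSG00000029468, GRCm39 chr5:122781942-122830400), the channel that ATP opens directly and that ART2.2 modifies, was hardly read in either group. It had 3, 0 and 0 counts in TEff replicates 1, 2 and 3 and 3, 3 and 2 counts in the TRM-like replicates. No sample exceeded the 3 counts that a count of 0 still allows, which correspond to 0.131 to 0.166 CPM, so no fold change is given. Per length, its TRM-like samples lay at 0.0167 to 0.0237 RPKM, against 0.00400 to 0.0289 RPKM for the receptor genes that T cells do not use. Whether P2rx7 differed between the groups was not detectable at this depth.

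Of the adenosine receptors, Adora3 rose from close to nothing, and Adora2a was lower in each TRM-like sample without passing the threshold. Adora3 (ENSMUSG00000000562, GRCm39 chr3:105778174-105816242) had 10, 7 and 6 counts in TEff replicates 1, 2 and 3 and 370, 324 and 164 counts in the TRM-like replicates. In CPM these were 0.457, 0.354 and 0.332 against 16.1, 14.2 and 7.56. TRM-like replicate 3 had the lowest level of its group and all 3 were far above TEff. The log2 fold change was 5.02 ± 0.37 (SE, n = 3 per group), or 32.4-fold, the highest among the members. It was 4.8 to 5.27 with any 1 sample left out, past the threshold each time. The TEff level of 0.151 RPKM was above that of the receptor genes that T cells do not use.

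Adora3 shares 154 exon bases with Tmigd3 on the same strand, which had 0 to 5 counts in TEff and 3 to 8 in TRM-like samples, and 670 with Gm53046, which had 0 counts in all 6. Mast cells also express Adora3, and 1 mast cell marker moved with it. Of 4 mast cell markers, 2 were tested and Kit passed the threshold (log2 fold change 3.27, adjusted p = 0.0377, edgeR), with 69, 90 and 68 counts in TEff replicates 1, 2 and 3 and 1266, 1136 and 129 in the TRM-like replicates. The defining marker Mcpt4 was at 0 counts in every sample, Tpsb2 had 0 to 1 count, and Cpa3 had 6 to 14 counts in TEff and 4 to 18 in TRM-like samples. The summed level of the 4 markers was 3.61 to 5.26 CPM in TEff and 6.13 to 55.7 CPM in TRM-like samples, lowest in replicate 3. Kit alone made up 3.15 to 4.56 CPM of that sum in TEff and 5.95 to 55.2 CPM in TRM-like samples. The part of Kit-expressing cells in the Adora3 result was not tested.

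Adora2a (ENSMUSG00000020178, GRCm39 chr10:75152560-75170628), the main adenosine receptor of T cells, measured 27.3, 32.0 and 27.5 CPM in TEff replicates 1, 2 and 3 and 18.9, 21.3 and 8.30 CPM in the TRM-like replicates. The groups did not overlap, and replicate 3 lay much lower than replicates 1 and 2. The log2 fold change was -0.84 ± 0.30 (SE, n = 3 per group), short of the threshold, and -0.53 ± 0.12 without TRM-like replicate 3. The size of the difference thus depended on 1 sample, and its direction did not.

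Among the enzymes that break adenosine down, Xdh was the member that changed, and it fell. Xdh (ENSMUSG00000024066, GRCm39 chr17:74190203-74257399) measured 154, 189 and 153 CPM in TEff replicates 1, 2 and 3 and 30.0, 29.6 and 34.4 CPM in the TRM-like replicates. All 3 TRM-like samples, replicate 3 included, lay within a narrow range far below TEff. The mean went from 165 ± 20.8 to 31.3 ± 2.63 CPM (SD, n = 3 per group), and the log2 fold change was -2.40 ± 0.15 (SE), or 5.28-fold lower. It stayed between -2.48 and -2.29 with any 1 sample left out, past the threshold each time. It had the 29th lowest log2 fold change among those 14822 genes.

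Ada (ENSMUSG00000017697, GRCm39 chr2:163565705-163592159) measured 5.03, 3.75 and 4.86 CPM in TEff replicates 1, 2 and 3 and 5.15, 6.25 and 9.91 CPM in the TRM-like replicates. The groups touched without overlapping, and replicate 3 held the highest value. The log2 fold change was 0.64 ± 0.27 (SE, n = 3 per group), short of the threshold, and 0.31 ± 0.19 without that sample. Ada shares 1069 exon bases with Pkig on the opposite strand, which had 89 to 158 counts in TEff and 111 to 135 in TRM-like samples, close in number to the counts of Ada. Reads in that stretch cannot be told apart if strand was not used in counting.

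Pnp (ENSMUSG00000115338, GRCm39 chr14:51168473-51190869), the enzyme between Ada and Xdh, measured 14.4, 10.9 and 17.2 CPM in TEff replicates 1, 2 and 3 and 10.7, 11.4 and 13.8 CPM in the TRM-like replicates. The groups overlapped, and the log2 fold change of -0.24 ± 0.20 (SE, n = 3 per group) did not pass the threshold. Pnp shares 718 exon bases with the protein-coding gene Gm49342 on the same strand, and 16.5% of the 50-base stretches of its transcripts. Gm49342 had 0 counts in all 6 samples. How reads of that stretch were assigned was not given, so the level of Pnp carries that limit. The neighbour and close relative Pnp2 shares 15.0% of the 50-base stretches of Pnp transcripts. Pnp2 was read at 5.82 to 9.01 CPM in TEff and 6.50 to 9.22 CPM in TRM-like samples and did not pass either (log2 fold change -0.09 ± 0.23, adjusted p = 0.899, edgeR).

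**Figure D2:**
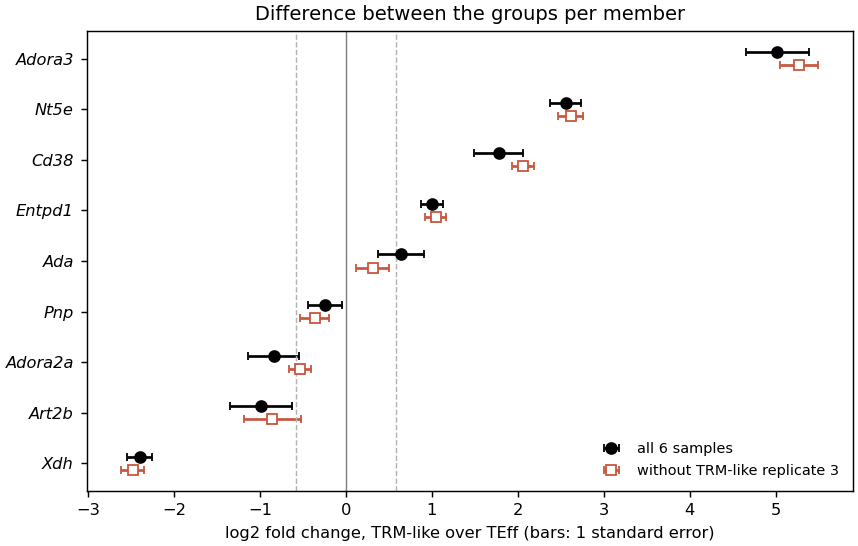
Log2 fold change of TRM-like over TEff for the 9 members with a fold, with bars of 1 standard error, from all 6 samples (black) and without TRM-like replicate 3 (open squares). Dashed lines mark 0.58 in either direction. The estimates of Nt5e, Entpd1 and Xdh hardly move without that sample, whereas Cd38 goes from 1.78 to 2.05 and Adora2a from -0.84 to -0.53.

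TRM-like replicate 3 did not deviate in one direction over the members. Within its group it was the lowest sample for 6 of the 9 members with a fold, the genes of the surface enzymes and receptors Entpd1, Nt5e, Cd38, Art2b, Adora2a and Adora3. It was the highest sample for the other 3, the breakdown enzymes Ada, Pnp and Xdh. Some of these ranks rest on small differences between TRM-like replicates 1, 2 and 3. Examples are Entpd1 (30.4, 32.1 and 28.0 CPM) and Xdh (30.0, 29.6 and 34.4 CPM). How often replicate 3 was an extreme over all genes was not counted. In TEff, replicate 2 was the highest sample for 6 of these 9 members and the lowest for Ada and Pnp.

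Levels of different genes were compared per length, in RPKM. In TEff cells the order of the mean level was Xdh (35.9), Adora2a (11.1), Nt5e (5.72), Pnp (4.82), Cd38 (4.40), Entpd1 (3.47), Ada (2.69), Art2b (2.11), Adora3 (0.151) and P2rx7 (0.00828). Xdh and Adora2a stood apart from each other and from the rest in every TEff sample, as did Adora3 and P2rx7 at the low end. The ranges over the samples overlapped between Nt5e and Pnp, between Pnp and Cd38, and between Ada and Art2b, so those neighbours did not differ beyond their spread.

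In TRM-like cells the order of the mean RPKM was Nt5e (33.6), Cd38 (15.1), Entpd1 (6.94), Xdh (6.81), Adora2a (6.23), Adora3 (5.0), Ada (4.21), Pnp (4.07), Art2b (1.06) and P2rx7 (0.0214). Nt5e, at 30.3 to 36.6 RPKM, was above every other member in all 3 samples, and Cd38, at 8.50 to 18.7 RPKM, was next. Entpd1, Xdh, Adora2a, Adora3, Ada and Pnp formed a run in which each overlapped its neighbour in range. Art2b and P2rx7 lay below that run in every sample.

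**Figure D3:**
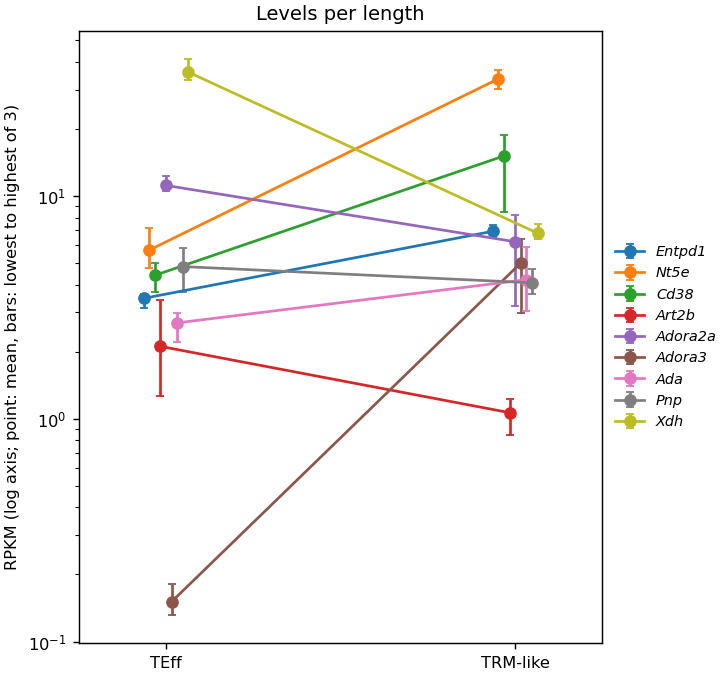
Mean level per length (RPKM, log axis) of 9 members in TEff and TRM-like cells, with bars from the lowest to the highest of the 3 samples and a line joining the means of each gene; P2rx7 is left out. Xdh leads in TEff at 35.9 RPKM and Nt5e leads in TRM-like at 33.6 RPKM, and Adora3 climbs from 0.151 to 5.0 RPKM.

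Around the members, most other genes of purine and NAD handling did not pass the threshold. Of 102 such genes in 6 lists, 86 were tested, 3 were higher (Acp3, P2ry14 and Nmrk2), 2 were lower (P2ry12 and P2ry13) and 81 did not pass, against the background of 1.52% and 1.48% of all genes. The median log2 fold change was -0.06 over the 86 genes. Adjusted p-values of these genes came from the same edgeR fit, with Benjamini-Hochberg adjustment over all genes tested.

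The nucleotide receptors held 3 of the 5 genes that passed. Of 13 P2 receptor genes other than P2rx7, 9 were tested, 1 was higher and 2 were lower. Without TRM-like replicate 3, 2 were higher (P2rx1 and P2ry14) and 4 were lower (P2rx2, P2rx3, P2ry12 and P2ry13). In that fit 6.38% of all genes passed as higher and 7.67% as lower. P2ry14, the receptor for UDP-sugars, measured 25.5, 18.9 and 27.1 CPM in TEff replicates 1, 2 and 3 and 61.6, 60.1 and 53.1 CPM in the TRM-like replicates (log2 fold change 1.29 ± 0.16, adjusted p = 0.00366). P2ry12 and P2ry13, receptors for ADP, lie next to it on chromosome 3 and fell. P2ry12 measured 6.04, 3.14 and 6.52 CPM in TEff and 1.09, 0.655 and 0.369 CPM in TRM-like samples (log2 fold change -2.87 ± 0.42, adjusted p = 0.00703). P2ry13 measured 4.02, 5.97 and 4.31 CPM in TEff and 1.44, 1.22 and 0.507 CPM in TRM-like samples (log2 fold change -2.16 ± 0.36, adjusted p = 0.0137). The 3 receptors showed no overlap between the groups, which held for 20.3% of all genes tested. P2ry12 lost its call without TEff replicate 1 or 3, and P2ry13 without any 1 of the TEff samples. P2ry12 shares 294 exon bases with Med12l on the opposite strand, which did not pass.

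Other enzymes that work on extracellular nucleotides mostly stayed below the threshold: of 18 ectonucleotidase and ADP-ribosyltransferase genes other than the members, 14 were tested and 1 was higher. That gene was Acp3, an acid phosphatase that can make adenosine from AMP, as CD73 does. It measured 4.16, 7.95 and 5.47 CPM in TEff replicates 1, 2 and 3 and 38.1, 42.6 and 12.5 CPM in the TRM-like replicates (log2 fold change 2.41 ± 0.43, adjusted p = 0.0204). TRM-like replicate 3 was again the lowest of its group. The call was lost without any 1 of the TEff samples or TRM-like replicate 2, and in limma-voom (adjusted p = 0.0545). Entpd5 and Entpd6, the genes of this list with the highest level per length, had log2 fold changes of 0.11 ± 0.16 and -0.02 ± 0.16. Of 12 genes for other adenosine receptors, nucleoside transporters and pannexins, 8 were tested and none passed by edgeR, nor by DESeq2, with 1 at an unadjusted p below 0.05 in edgeR. Without TRM-like replicate 3, 2 nucleoside transporters of this list passed as lower in edgeR, Slc29a1 (log2 fold change -1.02 ± 0.15, adjusted p = 0.00039) and Slc29a2 (-1.37 ± 0.38, adjusted p = 0.0221). In the same fit, 7.67% of all genes passed as lower. Adora2b was read at 0.405 to 1.10 CPM in TEff and 0.959 to 1.34 CPM in TRM-like samples, and Adora1 was too low to be tested.

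Of 13 genes of NAD synthesis and turnover, 12 were tested and 1 was higher, Nmrk2, a nicotinamide riboside kinase. It measured 0.732, 0.658 and 0.332 CPM in TEff replicates 1, 2 and 3 and 3.88, 4.06 and 1.71 CPM in the TRM-like replicates (log2 fold change 2.46 ± 0.43, adjusted p = 0.0175). Nmrk2 shares 531 exon bases with Atcayos on the opposite strand, which also passed as higher (log2 fold change 2.24 ± 0.48, adjusted p = 0.0438). Atcayos had 43, 57 and 30 counts in TEff and 295, 331 and 77 in TRM-like samples, and reads of the shared stretch cannot be told apart if strand was not used in counting. The call of Nmrk2 was lost without any 1 of the TEff samples or TRM-like replicate 2. Without TRM-like replicate 3, the NAD genes counted 3 higher (Naprt, Nmnat2 and Nmrk2) and 0 lower, beside 6.38% and 7.67% of all genes. Nampt, the enzyme that sets the pace of NAD salvage, had the values 59.6, 40.2 and 61.0 CPM in TEff and 61.1, 66.7 and 119 CPM in TRM-like samples and did not pass (log2 fold change 0.62 ± 0.27, adjusted p = 0.329).

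No gene of purine salvage and breakdown other than the members passed in either direction among the 20 tested of 23, and none of the 23 genes of de novo purine synthesis did, in edgeR. At an unadjusted p below 0.05 there were 2 salvage and 1 de novo genes in edgeR, and DESeq2 called 0 and 1 of them (Adss1, higher). Hprt1, which returns the hypoxanthine made by Pnp to the nucleotide pool, had a log2 fold change of -0.11 ± 0.21. Paics, a de novo enzyme and the gene of that list with the highest level per length, had -0.41 ± 0.25. Without TRM-like replicate 3, Paics had -0.78 ± 0.13 and passed as lower (adjusted p = 0.000757, edgeR), as did 7.67% of all genes. The de novo genes split by sample rather than by group. The median distance of the 23 de novo genes from their TEff means, on the scale log2(CPM + 0.5), was -0.42 and -0.48 in TRM-like replicates 1 and 2 and 0.20 in replicate 3, against 0.10, -0.23 and 0.14 in TEff replicates 1, 2 and 3.

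Without TRM-like replicate 3, the de novo genes counted 1 higher and 7 lower and the salvage genes 0 higher and 4 lower, beside 6.38% and 7.67% of all genes. Named after their values were seen, Pfas fell by 1.67 ± 0.18 (adjusted p = 3.41e-05) and Atic by 1.55 ± 0.16 (adjusted p = 1.54e-05) on the log2 scale in that fit, in edgeR's quasi-likelihood test. In all 6 samples Pfas measured 155, 94.6 and 139 CPM in TEff replicates 1, 2 and 3 and 43.6, 38.5 and 153 CPM in the TRM-like replicates. TRM-like replicate 3 thus lay among the TEff samples for this gene. Nt5e and Xdh were unlike these genes, since replicate 3 lay with replicates 1 and 2 for both.

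**Figure D4:**
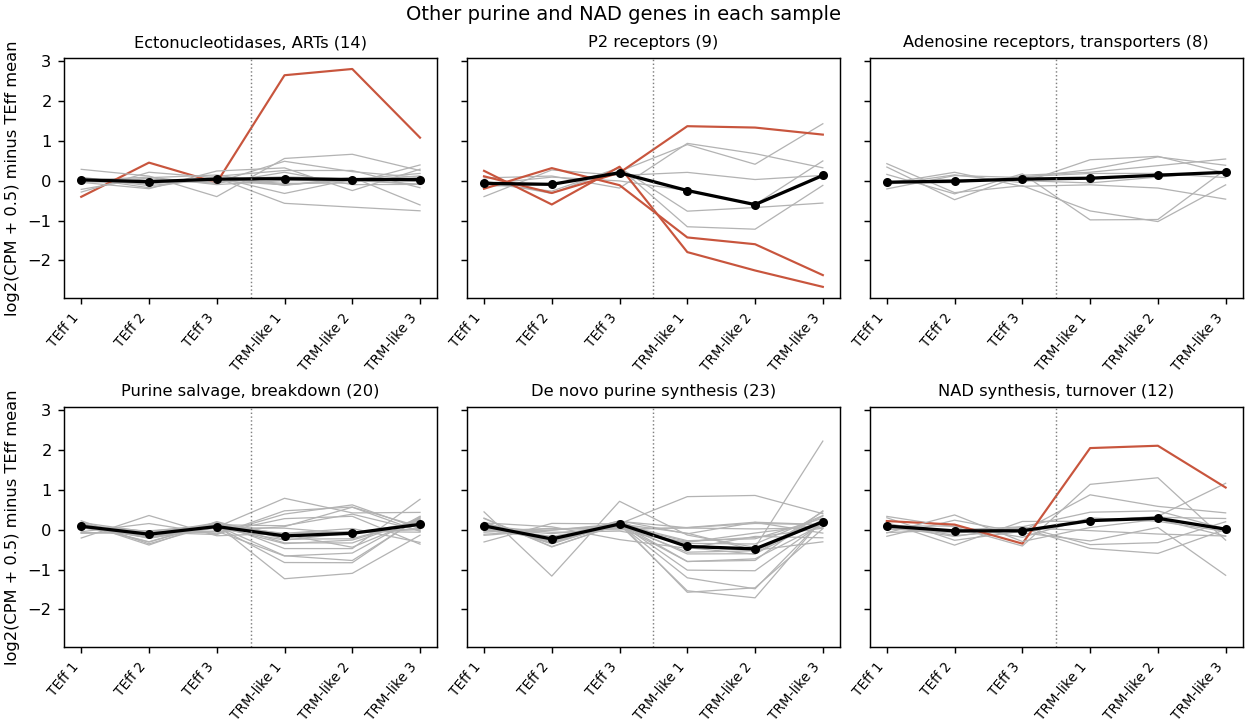
Distance of each other purine or NAD gene from its TEff mean in each sample, on the scale log2(CPM + 0.5), in 6 panels with the number of genes tested in brackets. Thin lines are genes, red lines the 5 that passed the threshold and the black line the median, and the lines join samples only to follow a gene. The median of the de novo genes is -0.42 and -0.48 in TRM-like replicates 1 and 2 and 0.20 in replicate 3.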

How the data were processed

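RNA sequencing of 6 samples was analysed. Libraries were made from total RNA with a stranded kit, per the labels. The submitters' processing notes name Cutadapt 4.8, and the authors used Rsubread and GENCODE genes of GRCm39 to map and count the reads, with no strand setting or treatment of multiply mapped reads given in the sources used here. The authors deposited raw counts per gene, without normalization, and the length of each gene in bases. Symbols and coordinates were taken from a newer GENCODE release of the same build, in which 56620 of 57126 genes were found.

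The members and all gene lists were chosen with earlier results of these data known. Counts were scaled to effective library sizes (TMM) to give CPM and, divided by gene length, RPKM. Groups were compared with edgeR 4.0.16 (glmQLFit, glmQLFTest) in R 4.3.3, which was tested on simulated data, for genes that had 1 count or more in 3 or more samples. The threshold asked for an adjusted p below 0.05 (Benjamini-Hochberg) and a log2 fold change beyond 0.58 in either direction. The standard error is the log2 fold change divided by the square root of F. The batch term of the study is not named and was not used. A count of 0 allows up to 3 counts, for counting error only.

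Named were all members, pathway genes past the threshold, the 2 genes of highest mean RPKM per list (not all are given here), and genes sharing reads with a member. Alternatives were DESeq2 1.42.0, limma-voom (limma 3.58.1), other size factors and filters, the replicate number as a block, and each sample left out.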

Additional observations from a re-analysis of the deposited data

How the results depend on the processing

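The number of members past the threshold was 5 and stayed at 5 under DESeq2, its size factors, limma-voom, filterByExpr and scaling to library totals. It was 3 to 5 with 1 sample left out, and 3 without TEff replicate 1. It was 7 with no filter (Adora2a and Art2b were added) and 4 where each sample had to reach 10 counts, which Adora3 does not. Of the pathway genes, 3 were higher and 2 lower. Higher genes numbered 5 under DESeq2, 2 under limma-voom and with the stricter filter, 8 with no filter and 1 to 7 with 1 sample left out, with 1 without any 1 TEff sample or TRM-like replicate 2. Lower genes numbered 1 with that filter, 7 with no filter and 0 to 17 with 1 sample left out, with 0 or 1 without any 1 TEff sample and the 17 and the 7 higher ones without TRM-like replicate 3. Replicate numbers correlated at -0.332, 0.345 and 0.416 between the groups, below the 0.546 of TEff replicate 2 with TRM-like replicate 1. Each group was first centred on its own mean, which forces values of both signs. These correlations therefore cannot decide whether the replicate numbers pair the samples, and the main fit used no pairing. With the replicate block, the same 7 members passed, with 6 pathway genes higher and 8 lower. With the block and that stricter filter together, an alternative chosen once the data were known, 5 members passed (Nt5e, Entpd1, Cd38, Xdh and Adora2a, with Adora3 not tested), with 2 pathway genes higher and 2 lower. The share of all genes past the threshold, 3.01%, was 4.83% under DESeq2, 3.09% with its size factors and 2.82% under limma-voom. It was 2.99% with library totals, 4.7% with filterByExpr, 3.91% with the stricter filter and 4.42% with no filter. The replicate block gave 7.78%, the block with the stricter filter 6.09%, and leaving 1 sample out 1.04% to 14%. The cause of these shifts was not tested. Single genes kept direction and call in 340 further comparisons with an alternative, gained the call in 11 and lost it in 18, and none reversed. Depth limits P2rx7 and the TEff level of Adora3.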
